A study of Mus musculus with 10 samples.

Results

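The genes described here are 10 genes that handle the calcium of the endoplasmic reticulum (ER). They move calcium across the ER membrane, report how much calcium the ER holds, or let calcium enter the cell when that store runs low. They include the pumps Atp2a2 and Atp2a3, the release channels Itpr1, Itpr2 and Itpr3 and the leak channel Tmco1. The others are the store sensors Stim1 and Stim2 and the entry channels Orai1 and Orai3. All 10 were chosen by name, with earlier results of these data known, and were found among the 51670 gene models of the deposited table. RNA had been sequenced from hematopoietic stem cells of mouse bone marrow, sorted as lineage-negative, Sca-1-positive, Kit-positive cells without CD48 and with CD150. All mice were wild-type C57BL/6J animals. The control group received DMSO, the solvent, by intraperitoneal injection (5 libraries), and the treated group received tunicamycin at 2 mg per kg (5 libraries). Tunicamycin blocks N-linked glycosylation and so loads the ER with unfolded protein. The labels give neither the ages nor the sexes of the mice, nor the time from injection to sorting, nor how many animals stand behind each library. The p-values therefore measure only the spread between libraries, which may be technical. The series title names EMP1 and ER stress. The labels allow 1 comparison, tunicamycin against DMSO.

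As background, the ER is the main calcium store of most cells. SERCA pumps (Atp2a genes) fill it using ATP, and receptors for inositol trisphosphate, IP3 (Itpr genes), release calcium from it when surface receptors signal. When the store runs low, STIM proteins in the ER membrane sense the loss on the luminal side, cluster, and open ORAI channels in the plasma membrane, a route called store-operated calcium entry. Many ER chaperones need bound calcium to fold proteins. Blood stem cells are known to be sensitive to their calcium level.

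Each library gave 1 value per gene in FPKM, fragments scaled to gene length and library depth, so that levels of different genes can be set side by side. FPKM sums lay between 436970 and 499251 per library, and the steps of low values correspond to about 18600000 to 60200000 reads in 9 libraries. By these steps the values of the 10 genes rest on about 206 to 14182 reads per gene and library. Tunicamycin replicate 1 holds whole numbers only, so its depth could not be read and its low values are coarse. DMSO replicates 3 and 5 carry Y-linked transcripts (61.3 and 51.6 FPKM over 4 genes) and almost no Xist (0.149 and 0.0654 FPKM). The other 8 libraries carry 28.2 to 35.6 FPKM of Xist and at most 0.053 FPKM of these Y-linked transcripts. By these transcripts only the DMSO group holds libraries of male cells, so sex was not balanced between the groups. All 10 ER stress reference genes rose in the treated libraries, led by Trib3, with a log2 change of 3.37. Stem cell markers were present in every library (Kit at 74 FPKM or more, Ly6a at 72.9 or more). Transcripts of Cd48, whose protein the sort excludes, rose from 17 to 38.1 FPKM after DMSO to 53.1 to 75.6 FPKM after tunicamycin (log2 change 1.23, adjusted p 0.000163), with no overlap. Macrophage (18 of 18 tested), endothelial (12 of 13), stromal (8 of 12) and megakaryocyte markers (12 of 15) rose in the same libraries as the results below. Summed macrophage markers lay at 863 to 1580 FPKM after DMSO and at 2596 to 6443 FPKM after tunicamycin. The other sums went from 153 to 247 up to 270 to 600 FPKM (endothelial), from 45.4 to 268 up to 342 to 1141 FPKM (stromal), and from 260.1 to 905 up to 1116 to 1594 FPKM (megakaryocyte), and no marker of these lists was near 0 in every library. Of the stem cell markers 8 of 13 rose and 0 fell (sums of 487 to 753 and 670 to 980 FPKM). Of the erythroid markers 6 of 15 rose and 9 fell (sums of 4453 to 8268 and 6032 to 12431 FPKM). B cell markers rose in 3 of 5 cases, T and NK cell markers in 2 of 5 and neutrophil markers in 0 of 11, with 1 at an unadjusted p under 0.05, and their sums overlapped between groups. The B cell marker Ebf1 averaged 0.492 FPKM after DMSO. It was tested only because the treated libraries reached 1 FPKM, so it had to differ. Klrb1c, a T and NK cell marker, also averaged under 1 FPKM after DMSO (0.833). Beside all these marker counts, 29.9% of all tested genes rose and 15.4% fell. The part of Cd48 and of these markers in the results was not tested. In RNA from sorted pools a change in the mix of cells and a change in RNA per cell cannot be told apart.

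Of the 10 genes 6 rose after tunicamycin and 0 fell, where 29.9% of the 14727 tested genes rose and 15.4% fell (45.3% called in either direction). The genes that rose were Atp2a3, Itpr1, Itpr2, Stim1, Orai1 and Orai3. All tests are limma on log2(FPKM + 1), with the p adjusted over all tested genes and a call at an adjusted p under 0.05. At an unadjusted p under 0.05 the count of falls was also 0. All 10 genes passed the filter on low values (at least 1 FPKM in at least 5 libraries). The median log2 change of the 10 genes was 0.37, beside 0.18 over all tested genes. With library medians made equal, which moves the median of all genes to -0.04, 3 of the 10 rose (Itpr2, Stim1 and Orai1; 20.6% of all genes) and 1 fell (Tmco1; 27% of all genes). Without DMSO replicates 3 and 5, which lack Xist, 2 rose (Stim1 and Orai1), with 22.1% of all tested genes rising.

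**Figure D1:**
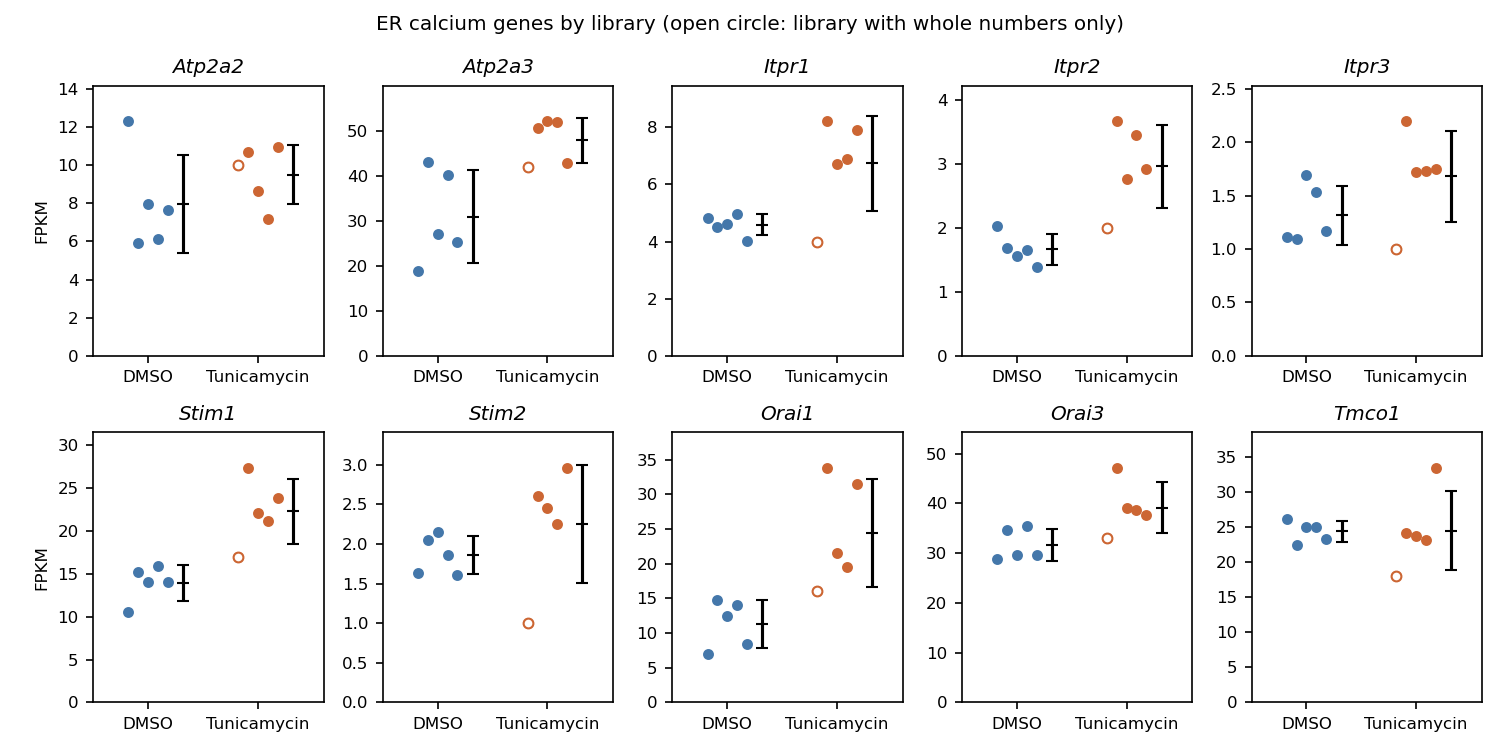
FPKM of each of the 10 ER calcium genes in every library, DMSO in blue and tunicamycin in orange, replicates 1 to 5 from left to right, with the group mean ± SD in black and Tunicamycin replicate 1 as an open circle. Stim1 and Orai1 show groups that do not overlap, and the open circle is the lowest treated library for 9 of the 10 genes.

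The store sensor Stim1 rose. STIM1 is the main ER sensor of calcium loss in most blood cells. Its level was 10.5, 15.3, 14, 15.9 and 14.1 FPKM in DMSO replicates 1 to 5 and 17, 27.4, 22.1, 21.2 and 23.8 FPKM in Tunicamycin replicates 1 to 5. Every treated library lay above every DMSO library. The mean went from 13.9 ± 2.08 to 22.3 ± 3.78 FPKM (SD, n = 5 each), 1.6-fold, with a log2 change of 0.64 ± 0.14 (SE) and an adjusted p of 0.00276. The groups of Stim1 and Orai1, 2 of the 10 genes, did not overlap, and both lay higher after tunicamycin. Of all tested genes 19.2% lay higher without overlap, and 30.2% had no overlap in either direction. Under the 21 alternative settings the call of Stim1 held each time, with log2 changes of 0.39 to 0.76.

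Stim2, the paralog that responds to smaller losses of stored calcium, was expressed far lower. It was at 1.64, 2.05, 2.15, 1.86 and 1.61 FPKM after DMSO and at 1, 2.60, 2.45, 2.25 and 2.96 FPKM after tunicamycin. The whole-number library was the lowest of all and the other treated libraries lay above all DMSO libraries. The log2 change of Stim2 was 0.15 (95% interval -0.24 to 0.54), with an adjusted p of 0.524. Without Tunicamycin replicate 1 it was 0.32 with an adjusted p of 0.0303, and with equal medians it was -0.03.

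Orai1 had the largest change of the 10 genes. ORAI1 forms the pore of store-operated entry that STIM1 opens. Its level was 6.94, 14.8, 12.5, 14 and 8.38 FPKM after DMSO and 16, 33.8, 21.5, 19.6 and 31.4 FPKM after tunicamycin. All treated libraries lay above all DMSO libraries, with Tunicamycin replicates 2 and 5 well above the other treated ones. The mean went from 11.3 ± 3.47 to 24.5 ± 7.77 FPKM (SD, n = 5 each), 2.16-fold, with a log2 change of 1.04 ± 0.23 (SE) and an adjusted p of 0.00321. This call too held under all 21 alternatives, with log2 changes of 0.80 to 1.18. Among the treated libraries Tunicamycin replicate 2 had the highest sums of endothelial, B cell and neutrophil markers. Tunicamycin replicate 5 had those of stromal, stem cell, megakaryocyte, T and NK cell and skeletal muscle markers. Their part in the level of Orai1 was not tested.

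Orai3, a channel found in mammals that can join ORAI1 in mixed pores, was the most abundant of the 10 genes after DMSO and rose by little. It was at 28.9, 34.7, 29.7, 35.5 and 29.5 FPKM after DMSO and at 33, 47.2, 39.0, 38.7 and 37.6 FPKM after tunicamycin. The whole-number library fell inside the DMSO range and the other treated libraries lay above it. Orai3 rose by 0.29 ± 0.11 (SE) on the log2 scale, at an adjusted p of 0.0491, just under the threshold. The call was lost under 13 of the 21 alternatives, with an adjusted p of up to 0.760. Orai2, the remaining ORAI gene, which is not among the 10, rose from 9.02 ± 2.11 to 14.3 ± 2.59 FPKM (log2 change 0.62, adjusted p 0.00851), a call lost with equal medians and without DMSO replicates 3 and 5.

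The bases around the transcription start of the sensor and entry channel genes are shown because Stim1 and Orai1 rose under every setting and their paralogs Stim2 and Orai3 did not. Each runs from 250 bases before the start to 50 after it, 5′ to 3′ on the gene's strand, from RefSeq on build GRCm38.p6. Capitals mark GC boxes (GGGCGG, either strand) and CCAAT boxes (CCAAT, either strand). Stim1 lies at chr7:102267569-102267868, Orai1 at chr5:123014824-123015123, Stim2 at chr5:53998273-53998572 and Orai3 at chr7:127769565-127769864, all on the plus strand.
Stim1: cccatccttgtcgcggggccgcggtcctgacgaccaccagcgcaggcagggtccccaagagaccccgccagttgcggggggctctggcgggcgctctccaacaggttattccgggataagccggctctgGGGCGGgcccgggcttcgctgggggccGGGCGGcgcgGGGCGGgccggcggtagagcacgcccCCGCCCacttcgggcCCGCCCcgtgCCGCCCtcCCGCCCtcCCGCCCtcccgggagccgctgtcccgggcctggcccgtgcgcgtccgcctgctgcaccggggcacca
Orai1: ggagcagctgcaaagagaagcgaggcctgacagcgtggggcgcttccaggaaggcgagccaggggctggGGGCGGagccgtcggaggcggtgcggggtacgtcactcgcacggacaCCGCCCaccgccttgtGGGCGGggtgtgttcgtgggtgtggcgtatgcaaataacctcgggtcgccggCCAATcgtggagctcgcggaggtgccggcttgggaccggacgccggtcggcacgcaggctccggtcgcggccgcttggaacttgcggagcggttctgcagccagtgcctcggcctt
Stim2: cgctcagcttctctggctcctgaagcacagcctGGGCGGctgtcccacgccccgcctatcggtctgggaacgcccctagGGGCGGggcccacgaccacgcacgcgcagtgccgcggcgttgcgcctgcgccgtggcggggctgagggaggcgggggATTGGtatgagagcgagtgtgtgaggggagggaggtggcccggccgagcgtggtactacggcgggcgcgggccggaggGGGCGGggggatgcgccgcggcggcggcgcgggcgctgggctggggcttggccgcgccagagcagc
Orai3: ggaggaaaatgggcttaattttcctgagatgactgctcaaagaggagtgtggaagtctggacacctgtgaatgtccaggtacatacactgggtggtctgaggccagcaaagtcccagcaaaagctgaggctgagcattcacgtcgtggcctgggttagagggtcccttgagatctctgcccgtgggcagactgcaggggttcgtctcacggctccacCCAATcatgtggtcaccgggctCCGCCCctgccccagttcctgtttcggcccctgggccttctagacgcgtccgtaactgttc
The Stim1 window holds 8 GC boxes and no CCAAT box and is 78.7% G and C. The Orai1 window holds 3 GC boxes and 1 CCAAT box, the Stim2 window 3 and 1, and the Orai3 window 1 and 1. Among all 32851 RefSeq windows of this length, 35.7% hold a GC box and 37.4% a CCAAT box. RefSeq windows were matched for 8 of the 10 genes, all but Atp2a2 and Itpr1. None of these 8 windows held the ER stress element ERSE (in 0.119% of all windows; it contains a CCAAT box), its second form ERSE-II (0.0365%), the unfolded protein response element TGACGTGG (0.676%) or the ATF4 and C/EBP composite site TGATGNAA (3.97%), on either strand. The absence says only that these letters are not in these windows.

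Among the pumps, Atp2a3 rose. It encodes SERCA3, the pump of platelets, lymphoid cells and other blood cells. Its level was 18.8, 43.0, 27.1, 40.2 and 25.3 FPKM after DMSO and 42, 50.6, 52.1, 51.8 and 42.9 FPKM after tunicamycin. The DMSO libraries spread widely, and the highest of them lay just above the lowest treated ones. The mean went from 30.9 ± 10.3 to 47.9 ± 5.0 FPKM (SD, n = 5 each), with a log2 change of 0.67 ± 0.19 (SE) and an adjusted p of 0.0134. Megakaryocyte markers, of which Pf4 had the highest level, rose in the same libraries, and their part in the rise of Atp2a3 was not tested. The call was lost with equal medians (0.42, adjusted p 0.097) and without DMSO replicates 3 and 5 (0.56, adjusted p 0.0885; 0.61, adjusted p 0.0845, with Tunicamycin replicate 1 also left out).

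Atp2a2, the SERCA2 pump present in nearly all cells, did not pass the test. It was at 12.3, 5.92, 7.94, 6.14 and 7.63 FPKM after DMSO and at 10, 10.7, 8.67, 7.20 and 11 FPKM after tunicamycin. DMSO replicate 1 was the highest of all 10 libraries, and the groups overlapped over nearly their whole range. The log2 change was 0.25 (95% interval -0.13 to 0.64), with an adjusted p of 0.264. Without DMSO replicate 1 it was 0.41 with an adjusted p of 0.0413. The gene model Gm43361 on the opposite strand, listed at 3.85 to 8.01 FPKM, shares 83 of the 6081 exon bases of Atp2a2, and without strand their reads cannot be told apart there. The third SERCA gene, Atp2a1, known from fast skeletal muscle, stayed at or under 1.13 FPKM and was not tested.

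The IP3 receptor genes were all low, and Itpr1 and Itpr2 rose. ITPR1 is the best known of these release channels in neurons, while ITPR2 and ITPR3 are found in many other tissues. Itpr2 was at 2.04, 1.68, 1.55, 1.66 and 1.38 FPKM after DMSO and at 2, 3.66, 2.76, 3.45 and 2.91 FPKM after tunicamycin. The whole-number library fell at the top of the DMSO range and the others lay above it. Itpr2 rose by 0.56 ± 0.15 (SE) on the log2 scale, with an adjusted p of 0.00791, and in mean FPKM it was 1.78-fold. Its call held under 19 of the 20 alternatives that tested it. It was lost without DMSO replicates 3 and 5 (0.49, adjusted p 0.0581), and not when Tunicamycin replicate 1 was left out as well (0.59, adjusted p 0.00757).

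Itpr1 was the most abundant IP3 receptor gene. Its level was 4.81, 4.52, 4.63, 4.98 and 4.0 FPKM after DMSO and 4, 8.21, 6.70, 6.89 and 7.90 FPKM after tunicamycin. The whole-number library lay at the bottom of the DMSO range, and the other 4 treated libraries stood well above it. Itpr1 rose by 0.44 ± 0.16 (SE) on the log2 scale, at an adjusted p of 0.0357. Without Tunicamycin replicate 1 it was 0.59, with an adjusted p of 0.000563. The call was lost under 12 of 20 alternatives, 8 of which left out a single other library.

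Itpr3 was the least abundant of the 10 genes. It was at 1.11, 1.09, 1.69, 1.53 and 1.17 FPKM after DMSO and at 1, 2.20, 1.72, 1.73 and 1.75 FPKM after tunicamycin. The 4 treated libraries with decimals lay above all DMSO libraries, 3 of them by little. The log2 change was 0.20 (95% interval -0.15 to 0.55), with an adjusted p of 0.330, and with quantile normalization it was -0.03. The ryanodine receptor genes Ryr1, Ryr2 and Ryr3, release channels known from muscle and neurons, stayed at or under 0.565 FPKM in every library and were not tested.

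Tmco1 encodes a small ER membrane protein known as a leak channel that opens when the store is overfull, and as a subunit of the translocon that inserts proteins with many membrane spans. It was at 26.2, 22.5, 25, 25.1 and 23.4 FPKM after DMSO and at 18, 24.2, 23.8, 23.2 and 33.5 FPKM after tunicamycin. The DMSO libraries lay close together, while Tunicamycin replicate 5 was the highest and Tunicamycin replicate 1 the lowest of all. The log2 change was -0.02 (95% interval -0.32 to 0.28), with an adjusted p of 0.930. With equal medians Tmco1 was lower (-0.27, adjusted p 0.0334). Of the 6 genes of its translocon partners 0 rose and 2 fell, Tmem147 (log2 change -0.68, adjusted p 0.00262) and Wdr83os (-0.35, adjusted p 0.0141). The limma count of rises was also 0 at an unadjusted p under 0.05. Over all tested genes 29.9% rose and 15.4% fell. With TPM scaling, 1 partner gene rose and 1 fell, where 5507 of all 14727 genes rose and 1699 fell. Wdr83os then had a log2 change of -0.22 (adjusted p 0.128).

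**Figure D2:**
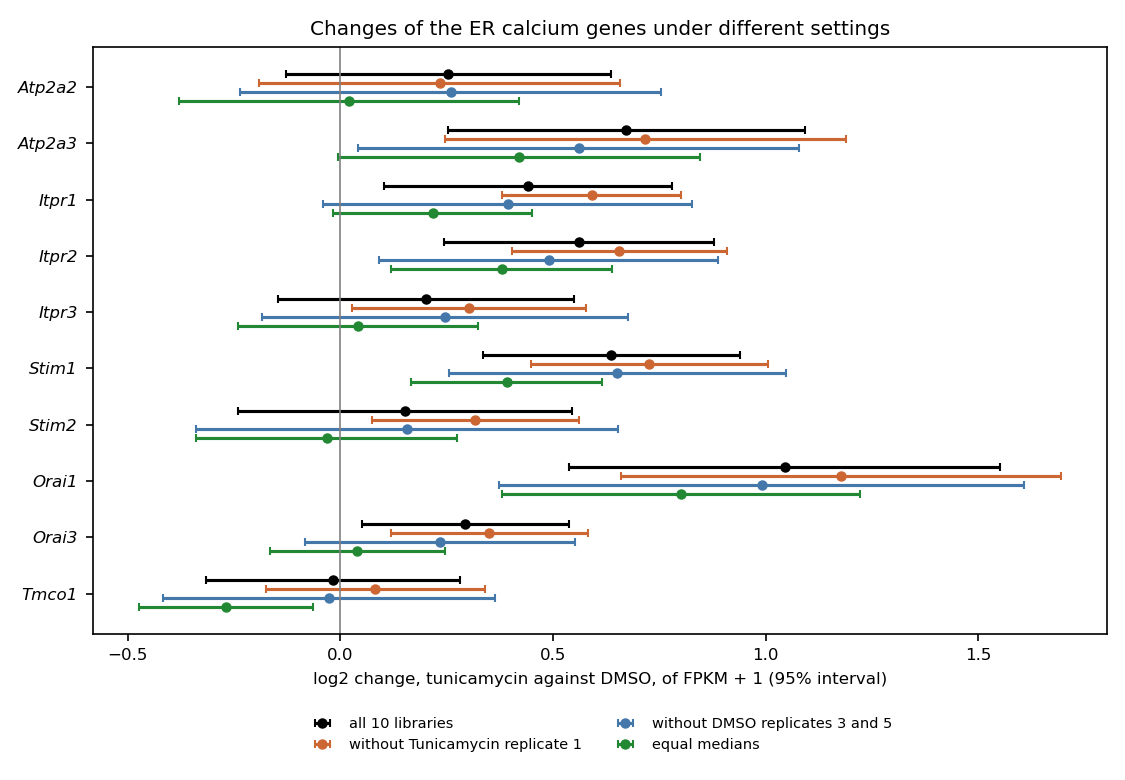
Log2 change of each of the 10 genes after tunicamycin (dots) with its 95% interval from limma (lines), over all 10 libraries, without Tunicamycin replicate 1, without DMSO replicates 3 and 5, and with equal library medians. The intervals of Stim1, Orai1 and Itpr2 lie above 0 under all 4 settings, and those of Atp2a2 cross 0 under all 4.

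Leaving out Tunicamycin replicate 1 moved the count of genes without overlap from 2 to 7. Of the 10 genes 7 then rose, Stim2 being added, and the 7 genes without overlap were all higher after tunicamycin. With the same tested genes 41.8% of all genes then rose, and for 35.1% the treated libraries lay entirely above the DMSO libraries. The 7 genes were the 3 IP3 receptor genes, both STIM genes and both ORAI genes. The same 7 lay above without overlap when DMSO replicates 3 and 5 were left out too, where 41.2% of all genes did. With TPM scaling and all libraries they were 5 (Atp2a3, Itpr2, Stim1, Orai1 and Orai3), beside 24.9% of all genes.

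By level after DMSO the order was Orai3 (31.6 ± 3.15 FPKM), Atp2a3 (30.9 ± 10.3), Tmco1 (24.4 ± 1.5), Stim1 (13.9 ± 2.08), Orai1 (11.3 ± 3.47), Atp2a2 (7.99 ± 2.57), Itpr1 (4.59 ± 0.371), Stim2 (1.86 ± 0.243), Itpr2 (1.66 ± 0.239) and Itpr3 (1.32 ± 0.276). The ranges of neighbours overlapped except between Tmco1 and Stim1, between Atp2a2 and Itpr1, and between Itpr1 and Stim2. After tunicamycin Atp2a3 (47.9 ± 5.0 FPKM) stood first, ahead of Orai3 (39.1 ± 5.12) in 5 of 5 libraries although their ranges overlapped, where after DMSO Orai3 had exceeded Atp2a3 in 3 of 5. Orai1 (24.5 ± 7.77 FPKM), after 4 others in the DMSO libraries, stood at the level of Tmco1 (24.5 ± 5.61) and Stim1 (22.3 ± 3.78).

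Ratios between paralogs within a library depend little on how the library is scaled (0.1 FPKM was added to each value), and 6 pairs were compared. The balance of the ORAI genes moved towards Orai1. The log2 ratio of Orai1 to Orai3 was -2.04, -1.23, -1.24, -1.33 and -1.80 in the DMSO libraries and -1.04, -0.48, -0.86, -0.98 and -0.26 in the treated ones. All treated libraries lay above all DMSO libraries, a mean difference of 0.81, with an exact two-sided permutation p of 0.00794 (the smallest 5 against 5 libraries can give) and 0.0476 adjusted over the 6 pairs. Orai1 made up 21.4 ± 3.67% of the summed FPKM of the ORAI genes after DMSO and 30.9 ± 5.66% after tunicamycin (SD, n = 5), while Orai3 went from 61.4 ± 5.0% to 50.5 ± 3.23%. The remaining pairs did not pass over all 10 libraries. The ratio of Stim1 to Stim2 was higher by 0.48, that of Itpr2 to Itpr3 by 0.47 and that of Itpr1 to Itpr2 differed by -0.27, each with an adjusted exact permutation p of 0.0714. Without DMSO replicate 1 the pairs Itpr1 to Itpr2 (-0.32) and Itpr2 to Itpr3 (0.59) passed, each with an adjusted exact permutation p of 0.0476. Without Tunicamycin replicate 5 Itpr1 to Itpr2 (-0.33, adjusted exact permutation p 0.0476) and Stim1 to Stim2 (0.57, adjusted exact permutation p 0.0238) passed. Without Tunicamycin replicate 1, where Stim2 was at a whole-number 1 FPKM, the Stim1 to Stim2 difference was 0.32 (adjusted exact permutation p 0.131). With all libraries truncated to whole FPKM it was 0.34 (adjusted exact permutation p 0.267). Without DMSO replicates 3 and 5 the adjusted exact permutation p of Stim1 to Stim2, Itpr2 to Itpr3 and Itpr1 to Itpr2 was 0.241 each. Over all 10 libraries the difference for Itpr1 to Itpr3 was 0.20 (adjusted exact permutation p 0.162). For Atp2a2 to Atp2a3 it was -0.41 (adjusted exact permutation p 0.397), with the DMSO libraries spread from -2.84 to -0.61. Stim1 made up 88.1 ± 1.51% of STIM transcripts after DMSO, Atp2a3 77.1 ± 11% of SERCA transcripts and Itpr1 60.7 ± 1.19% of IP3 receptor transcripts, in FPKM.

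**Figure D3:**
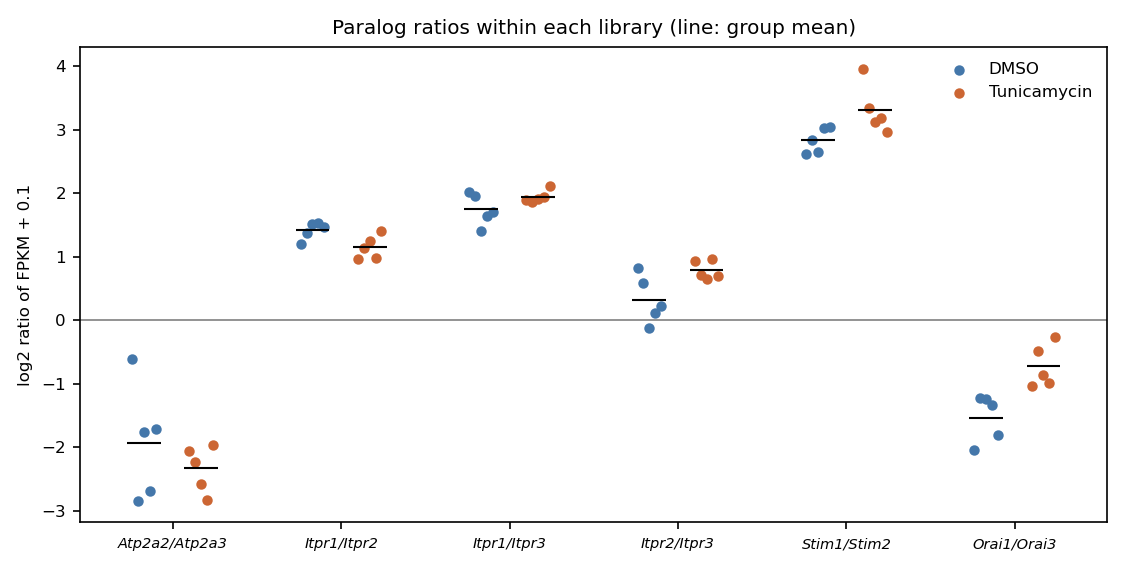
Log2 ratio of FPKM + 0.1 between paralogs in each library for 6 pairs, DMSO in blue and tunicamycin in orange, replicates 1 to 5 from left to right, with the group mean as a line. For Orai1 to Orai3 the treated libraries (-1.04 to -0.26) lie above the DMSO libraries (-2.04 to -1.23), and the other pairs overlap.

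Genes of proteins that regulate these pumps and channels moved mostly upward. Of 18 tested regulators 11 rose and 0 fell, with 1 fall at an unadjusted p under 0.05, and the median log2 change was 0.52. Over all tested genes 29.9% rose and 15.4% fell. Cracr2b, a cytoplasmic calcium-binding regulator of ORAI channels, rose from 3.36 ± 0.584 to 10.6 ± 3.78 FPKM (log2 change 1.36, adjusted p 0.000182). Mrvi1 (IRAG1), which links the IP3 receptor to its inhibition by cyclic GMP, rose by 1.03 and Selenok, an ER selenoprotein needed for palmitoylation of the IP3 receptor, by 0.96 on the log2 scale. With equal medians 8 rose and 1 fell, where 20.6% of all genes rose and 27% fell. With a filter of 5 FPKM 7 of 12 rose, where 2859 of all 8619 tested genes rose.

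The list of calcium-binding proteins of the ER lumen, which includes folding factors, had 11 of 16 tested members higher and 0 lower (1 lower at an unadjusted p under 0.05). Over all tested genes 29.9% rose and 15.4% fell. The median log2 change of the list was 1.0. Nucb2, nucleobindin 2, rose from 3.12 ± 1.43 to 40.9 ± 12.7 FPKM (log2 change 3.36, adjusted p 1.6e-06). The ER protein gene Creld2 rose by 2.57 and Pdia4, a disulfide isomerase, by 2.51 on the log2 scale. Of these 16 genes Hspa5, Hsp90b1 and Pdia4 also stand among the ER stress reference genes. With equal medians 10 rose and 1 fell, where 20.6% of all genes rose and 27% fell. With quantile normalization 1 also fell, where 3767 of all 14727 genes fell. Without DMSO replicate 2 the count of falls was 1 as well, where 2117 of all 14606 tested genes fell.

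Genes of other proteins that let calcium leak from the ER or hold that leak down rose in 10 of 11 cases. The count of falls was 0, also at an unadjusted p under 0.05. Over all tested genes 29.9% rose and 15.4% fell. The changes on this list were small (median 0.41), led by the survival gene Bcl2l1 (27.7 ± 4.73 to 58.6 ± 8.10 FPKM, log2 change 1.06), Grina (0.74) and Pkd2, polycystin 2 (0.67). The count fell to 4 with equal medians, when every gene was tested or without DMSO replicates 3 and 5, to 5 without Tunicamycin replicate 2 and to 6 without DMSO replicate 1 or 5. Of all genes 20.6% rose with equal medians and 22.1% without DMSO replicates 3 and 5. When every gene was tested, 3375 of 51539 rose. Without Tunicamycin replicate 2 it was 3294 of 14198, without DMSO replicate 1 3792 of 14550 and without DMSO replicate 5 3674 of 14520. Of the 4 tested pumps and exchangers of the plasma membrane and Golgi 3 rose and 0 fell, also at an unadjusted p under 0.05. They were Atp2b1, a plasma membrane calcium pump (9.27 ± 0.739 to 14.9 ± 1.46 FPKM, log2 change 0.63, adjusted p 0.000341), the exchanger gene Slc8a1 (0.44) and the Golgi pump gene Atp2c1 (0.30). Slc8a1 averaged 0.604 FPKM after DMSO and was tested only because the treated libraries reached 1 FPKM, so it had to differ. Only 1 of this list rose with quantile normalization, with no filter, or without DMSO replicate 4 or 5, Tunicamycin replicate 2, 4 or 5, or DMSO replicates 3 and 5 together, and with equal medians 2 rose. With quantile normalization 3425 of all 14727 genes rose.

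Upstream of the release channels, 7 of 11 tested genes of IP3 production and removal rose and 1 fell. Over all tested genes 29.9% rose and 15.4% fell. Plcg2, a phospholipase that makes IP3 in blood cells, rose from 38.0 ± 8.46 to 82.3 ± 9.18 FPKM (log2 change 1.12, adjusted p 0.000139). Plcg1 rose by 0.85 and Plcb3 by 0.76 on the log2 scale. The gene that fell was Impa1, which recycles inositol (named after its value had been seen), by a log2 change of -0.29 with an adjusted p of 0.0403. That call was lost with TPM scaling, with no filter, with the replicate number as a block and without DMSO replicates 3 and 5 together. It was also lost when any of 7 single libraries was left out, all but DMSO replicate 2 and Tunicamycin replicates 3 and 5. With quantile normalization 4 rose and 1 fell, where 3425 of all 14727 genes rose and 3767 fell.

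Downstream, 8 of 18 tested calmodulin, calcineurin and NFAT genes rose, beside 29.9% of all tested genes. The count of falls was 0, also at an unadjusted p under 0.05. The calmodulin kinase genes Camk1 (20.6 ± 3.85 to 44.8 ± 13.9 FPKM) and Camk2d (9.03 ± 1.72 to 19.5 ± 1.80 FPKM) each rose by 1.05 on the log2 scale, and Nfatc1, a transcription factor that calcineurin activates, by 0.89. With equal medians 4 rose and 1 fell, and without Tunicamycin replicate 5 7 rose and 1 fell. The number that rose was 12 without Tunicamycin replicate 1, where 41.8% of all genes rose on the same tested genes as the full set. It was 5 with quantile normalization, where 3425 of all 14727 genes rose. It was also 5 with no filter, without DMSO replicate 1 or 5 and without Tunicamycin replicate 2 or 4. Without DMSO replicates 3 and 5 together 5 rose as well, where 22.1% of all genes rose.

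Genes of mitochondrial calcium uptake and ER contact went both ways, 3 of 14 higher and 4 lower, with a median log2 change of 0.16. Of all tested genes 29.9% rose and 15.4% fell. Slc8b1, the exchanger that lets calcium out of mitochondria, rose from 4.74 ± 1.52 to 12.4 ± 1.49 FPKM (log2 change 1.26, adjusted p 0.000102) and Mcur1, a regulator of the uptake channel, rose by 0.62. Vdac1, the main outer membrane channel, fell from 148 ± 11.2 to 90.2 ± 7.15 FPKM (log2 change -0.71, adjusted p 0.000144). With TPM scaling or without Tunicamycin replicate 1, 5 rose, and with equal medians 2 rose and 5 fell. The lists do not overlap with the 10 genes, and they were described by counts, with no test of a list.

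**Figure D4:**
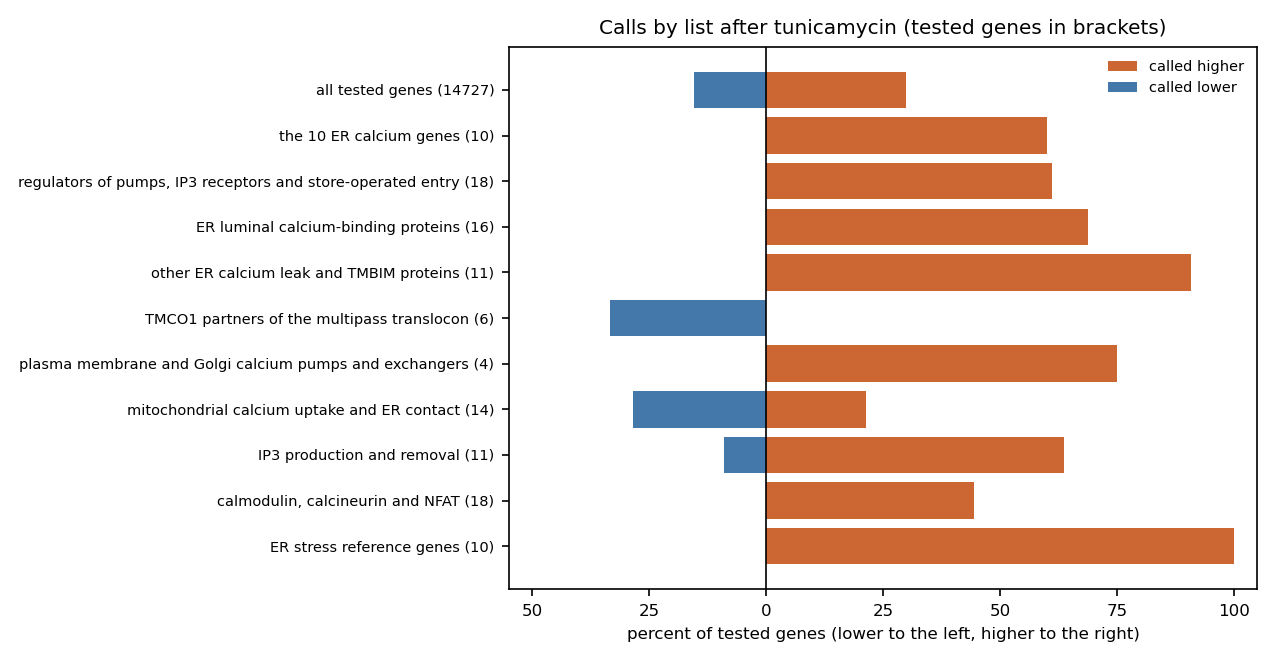
Percent of tested genes called higher (orange, to the right) or lower (blue, to the left) after tunicamycin in all tested genes, the 10 ER calcium genes, 8 lists of calcium genes and the ER stress reference genes, with the number tested in brackets. Of all tested genes 29.9% rose and 15.4% fell, and of the 10 genes 60% rose and 0% fell.

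For the 3 of the 10 genes with the smallest adjusted p, the tested genes with the most similar course over the 10 libraries were looked up by the root mean square difference of log2(FPKM + 1), each gene taken relative to its DMSO mean. Closest to Stim1 were Tor4a (0.0544), Slc23a2 (0.0631) and Mgrn1 (0.0706), with log2 changes of 0.66, 0.68 and 0.66. Closest to Orai1 were Crtc2 (0.140), Mfge8 (0.147) and Gpr132 (0.149), with log2 changes of 1.06, 0.96 and 0.95. Among the closest to Itpr2 were Pard3b (0.0773) and Chmp1b (0.0909), with log2 changes of 0.49 and 0.52.

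On build mm10 (GENCODE release M21) the 10 genes lie apart from each other on 6 chromosomes. Stim1 spans chromosome 7, positions 102267806 to 102437319, and Orai3 lies on the same chromosome at 127769815 to 127775150. Orai1 spans chromosome 5, positions 123015074 to 123030456, with Atp2a2 on the minus strand at 122453513 to 122502225. Itpr2 spans chromosome 6, positions 146108299 to 146502223, on the minus strand. All 10 are protein-coding genes, with 2 (Itpr3) to 13 (Itpr1) annotated transcripts and 1 deposited value per gene and library.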

How the data were processed

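RNA from 10 libraries of sorted mouse hematopoietic stem cells (5 after DMSO, 5 after tunicamycin) was sequenced, with groups taken from the sample titles. The deposited table gives FPKM per gene, made by the authors. The submitters' processing notes list build mm10 with Cufflinks 2.1.1, Bowtie 0.12.9, DESeq2 and HTSeq. What each tool did, and with which annotation, is not given in the sources used here. For Tunicamycin replicate 1 the deposited column holds whole numbers only and was used as a score on the FPKM scale. The labels' protocols give amplification by Geo-seq and a Tn5-based kit, so no strand is known.

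Identifiers were matched to symbols for 51389 of 51670 models (GENCODE M21). Genes with at least 1 FPKM in at least 5 libraries were tested with limma 3.58.1 in R 4.3.3 (lmFit, eBayes with trend) on log2(FPKM + 1), group as the only term, with Benjamini-Hochberg adjustment over 14727 genes and a threshold of 0.05. Fold changes on this scale understate those of low genes. The fit was tested on simulated data. Ratios used a pseudocount of 0.1 and exact two-sided permutation tests over 252 assignments. Reads per library were estimated from steps of low FPKM values multiplied by merged exon length, where 82.1% to 95.2% of low values lay within 0.05 reads of a whole number. These lengths may differ from those behind the deposited values, so the reads were not tested as counts and give only the depth.

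Named genes were the 10 members and, per list, the 3 called genes with the largest change. Some genes are not reported here. Members and lists were chosen with earlier results of these data known. Alternatives were another pseudocount, filter, scaling and precision, the replicate block and left-out libraries. Stimate, Irag1, Irag2 and Strit1 were matched through RefSeq synonyms. Python 3.11.15 ran the table steps (pandas 2.3.3) and figures (matplotlib 3.10.9).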

Additional observations from a re-analysis of the deposited data

How the results depend on the processing

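Of the 206 values of single members under the alternatives 165 kept direction and side of the threshold. Stim1 and Orai1 kept both under all 21. With equal medians 3 members rose and 1 fell, and without both DMSO libraries lacking Xist 2 rose. Leaving out single libraries gave 4 to 7 members rising and 0 falling. The members without overlap numbered 2 to 7 with single libraries left out. They numbered 5 with TPM scaling, where 24.9% of all genes lay higher without overlap. They numbered 7 without Tunicamycin replicate 1 on the same tested genes, with or without DMSO replicates 3 and 5 (both chosen after seeing the data). There 35.1% of all genes lay higher without overlap, and 41.2% with DMSO replicates 3 and 5 also left out. Over all genes 4403 rose and 2261 fell. With a filter of 5 FPKM, which tests fewer genes and leaves out Stim2 and the 3 IP3 receptor genes, 2859 rose. With quantile normalization 3425 rose and 3767 fell, and with equal medians 3037 and 3972. Single libraries left out gave 3294 to 5841 rises and 1891 to 2510 falls. The median change of all genes was 0.18, and -0.01, -0.04 and 0.28 with quantile normalization, equal medians and TPM scaling.

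Log2 changes that turned sign were -0.029 for Itpr3 and -0.084 for Stim2 with quantile normalization, -0.033 for Stim2 with equal medians, and, for Tmco1, those with TPM scaling (0.11), without DMSO replicate 1 (0.0075; -0.13 to 0.08 over all single libraries left out) and without Tunicamycin replicate 1 (0.082, on the same tested genes also 0.082, or 0.074 with DMSO replicates 3 and 5 also left out). None of these members was called in the full set. The causes were not tested.

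With a pseudocount of 1 the ratios of Itpr2 to Itpr3 (0.36) and of Stim1 to Stim2 (0.49) passed. Without DMSO replicates 3 and 5 the difference for Orai1 to Orai3 was 0.81, where 3 against 5 libraries cannot give an exact p under 0.0179. This pair was at that floor, and its adjusted p of 0.107 is the smallest that 1 pair alone at the floor can have. With single libraries left out the differences ranged from 0.68 to 0.89 for Orai1 to Orai3, -0.33 to -0.22 for Itpr1 to Itpr2, 0.36 to 0.59 for Itpr2 to Itpr3 and 0.32 to 0.57 for Stim1 to Stim2.

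Replicate numbers are shared by both groups, but deviations of same-numbered libraries correlated at 0.0207 to 0.248, under 0.1 in 3 of 5 pairs, and 2 of 5 DMSO libraries correlated best with their own number. With the number as a block 4553 genes rose and 2248 fell, and 6 members rose, while the fall of Impa1 was lost (adjusted p 0.0584). For the ratio of Orai1 to Orai3 the paired difference was 0.81 (adjusted exact p 0.125), where the smallest unadjusted p that 5 pairs allow is 0.0625.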

Other observations

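DMSO replicate 1 lay at the edge of its group for most of the 10 genes. It had the lowest DMSO value of Atp2a3 (18.8 FPKM), Stim1 (10.5), Orai1 (6.94) and Orai3 (28.9), and the highest of Atp2a2 (12.3), Itpr2 (2.04) and Tmco1 (26.2). Its log2 ratio of Atp2a2 to Atp2a3 was -0.61, beside -2.84 to -1.72 in the other DMSO libraries. The same library had the highest DMSO sums of erythroid markers (8268 FPKM) and megakaryocyte markers (905 FPKM) and the lowest sum of stem cell markers (487 FPKM).

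Among the treated libraries Tunicamycin replicate 5 had the highest Stim2 (2.96 FPKM) and Tmco1 (33.5 FPKM) and the highest ratio of Orai1 to Orai3 (log2 -0.26). It also had the highest treated sums of stromal (1141 FPKM), stem cell (980), megakaryocyte (1594), T and NK cell (132) and skeletal muscle markers (10.9). The T and NK cell and skeletal muscle sums lay inside their DMSO ranges (75.8 to 151 and 9.26 to 13.2 FPKM). The 1 tested skeletal muscle marker, Mylpf, fell after tunicamycin (limma log2 change -0.68, adjusted p 0.00334). A link between the marker sums and the values of this library was not tested. No library of either group stood far enough from its group to pass Dixon's test at the 95% level in 34 groups of values, which covered the 10 genes, Orai2 and the 6 ratios.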
